A study of Mus musculus with 24 samples.

Results

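A set of 9 genes that act in proliferation and survival downstream of the v-Abl kinase was followed by name through allele-specific RNA-seq of 2 mouse Abelson B-cell clones and of mouse kidney. All 9 genes of the list, Myc, Ccnd2, Ccnd3, Pim1, Cish, Bcl6, Foxo1, Mcl1 and Bcl2l1, were found by symbol among the 37315 genes of the count tables. The list was given by symbol. For each gene the abundance and the allelic imbalance (AI, the share of allelic counts in the column labelled maternal) were read in every library.

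v-Abl is the constitutively active tyrosine kinase of the Abelson leukaemia virus and transforms early B cells. It is known to act through STAT5, RAS and PI3K-AKT signalling, and so to replace signals that a normal pre-B cell takes from the interleukin 7 receptor. MYC drives growth and division, the D-type cyclins CCND2 and CCND3 activate CDK4 and CDK6 in G1, and PIM1 is a serine/threonine kinase encoded by a STAT5 target gene. CISH is a STAT5-induced feedback inhibitor of cytokine receptors. BCL6 is a transcriptional repressor of the B lineage that STAT5 holds down, and FOXO1, which AKT keeps out of the nucleus, drives Rag1 and Il7r transcription. MCL1 and the BCL-XL protein of Bcl2l1 protect cells from apoptosis.

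Abl.1 and Abl.2 are Abelson lymphoblastoid clonal lines from female 129S1/SvImJ x CAST/EiJ F1 mice, grown in medium without drug. Each line is 1 clone, so a difference between them is a difference between 2 clones and not between 2 states. Each was represented by 2 SMARTseq libraries made from 10 ng RNA, and both Abl.2 libraries were sequenced a second time on another lane and day. The tissue used for contrast was the left kidney of 1 untreated adult female of the same cross, with 6 SMARTseq libraries made from 10 ng of 1 RNA. All replicates were library preparations and not separate cultures or animals, so p-values below cover only counting error and the spread between libraries. In both sources fewer cells with a transcript and less of the transcript per cell cannot be told apart.

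Total allelic counts per library were 19213150 to 22410835 in the clones and 6360257 to 6397679 in kidney. All 8 B-lineage markers were detected in both clones, with a summed level of 6604 to 8579 CPM (allelic counts scaled to the total of each library) against 15.8 to 20.2 CPM in kidney, and Pax5 was the lowest at 17 to 53 counts. Myeloid markers summed to 165 to 192 CPM in Abl.1 and 299 to 309 CPM in Abl.2, and of 4 such genes Adgre1 was at 0 in all 4 clone libraries. Lyz2 was read at 2556 to 2939 counts in Abl.1 and at 6368 to 6825 in Abl.2, whereas Csf1r (412 to 1139 against 0 to 4 counts) and Itgam (186 to 207 against 15 to 19) were read less in Abl.2. Of 4 endothelial and fibroblast markers, Cdh5 stood at 4518 and 4843 counts in Abl.1 and at 0 in Abl.2. Kidney markers summed to at most 15.8 CPM in the clones against 19175 to 19508 CPM in kidney. The part of these genes in the results was not tested. The Abl1 row, which would hold reads of the cellular gene, was at 0 in every library, so the kinase itself could not be read.

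Sequence around the transcription starts of the genes was inspected because several of them are known STAT5 targets. RefSeq (GRCm38.p6) gave 12 promoter windows for 7 of the 9 genes, each running from 250 bases before to 50 bases after a transcription start, and none for Myc and Ccnd2. The motif TTCNNNGAA, to which STAT factors bind and which reads the same on both strands, occurred in 3 of the 12 windows. Of all 32851 promoter windows 8.30% held it. The Cish window held 2 matches and the Bcl6 window at a start inside the gene held 3, and 0.457% of all windows held 2 or more. The other match lay in the Bcl6 window at the 5′ end of the gene, 118 bases before that start. The Cish matches began at bases 1 and 12 of the transcript, not upstream of the start. The windows of Ccnd3, Pim1, Foxo1, Mcl1 and Bcl2l1 did not hold the motif. The stretches with the matches of Cish and of the internal Bcl6 start are shown 5′ to 3′ on the strand of the gene, with the matches in capitals. That of Cish runs from 120 bases before the start to 25 bases into the transcript (chr9:107296539-107296683, plus strand), and that of Bcl6 from 190 to 51 bases before the internal start (chr16:23981334-23981473, minus strand).
Cish: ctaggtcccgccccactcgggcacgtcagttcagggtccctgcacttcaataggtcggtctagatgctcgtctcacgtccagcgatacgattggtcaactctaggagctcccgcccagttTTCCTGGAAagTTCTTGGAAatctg
Bcl6: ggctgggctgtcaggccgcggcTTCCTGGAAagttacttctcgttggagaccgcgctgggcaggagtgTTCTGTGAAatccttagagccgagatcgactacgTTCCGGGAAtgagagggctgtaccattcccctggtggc
These matches are letters in a window, and no binding was measured here. In the clones Cish was read at 2511 to 5308 counts per library and Bcl6 at 0 to 32.

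Between the clones, Ccnd3, Foxo1 and Pim1 were more abundant in Abl.2 and Ccnd2 was less abundant, with fold differences of 2.40 to 4.24. Myc, Cish, Bcl6, Mcl1 and Bcl2l1 did not pass the test. These 4 calls of 9 are read against a background in which 46.2% of the 12294 tested genes differed by edgeR's quasi-likelihood test at a Benjamini-Hochberg adjusted p of 0.05, 21.6% higher and 24.5% lower in Abl.2. The share among the 9 genes is near that background, so the values of single genes are the content here, and not their number. The median difference was 0.46 over the 9 genes and 0.01 over all tested genes (log2). The main fits used TMM scaling, and CPM values used library totals unless stated. TMM lowered all Abl.2 minus Abl.1 differences by a median of 0.35 (log2) compared with scaling by library totals. Of the genes called, 46.9% were higher in Abl.2 with TMM and 62.7% with totals.

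The 2 Abl.1 libraries differed from each other for several of these genes. After TMM scaling, replicate 2 of Abl.1 held 1.74 times the Myc, 1.63 times the Cish, 1.58 times the Ccnd3, 1.48 times the Mcl1 and 1.45 times the Pim1 of replicate 1, but 0.740 times the Ccnd2 and 0.870 times the Foxo1. Over the 9229 genes that averaged 100 counts or more, the log2 ratio of the 2 Abl.1 libraries had an SD of 0.64, against 0.40 for the 2 Abl.2 libraries. The 2 Abl.2 libraries lay within 1.13-fold of each other for all 9 genes. The abundance fits were therefore also run without each library in turn, and the AI tests without each clone library in turn.

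**Figure D1:**
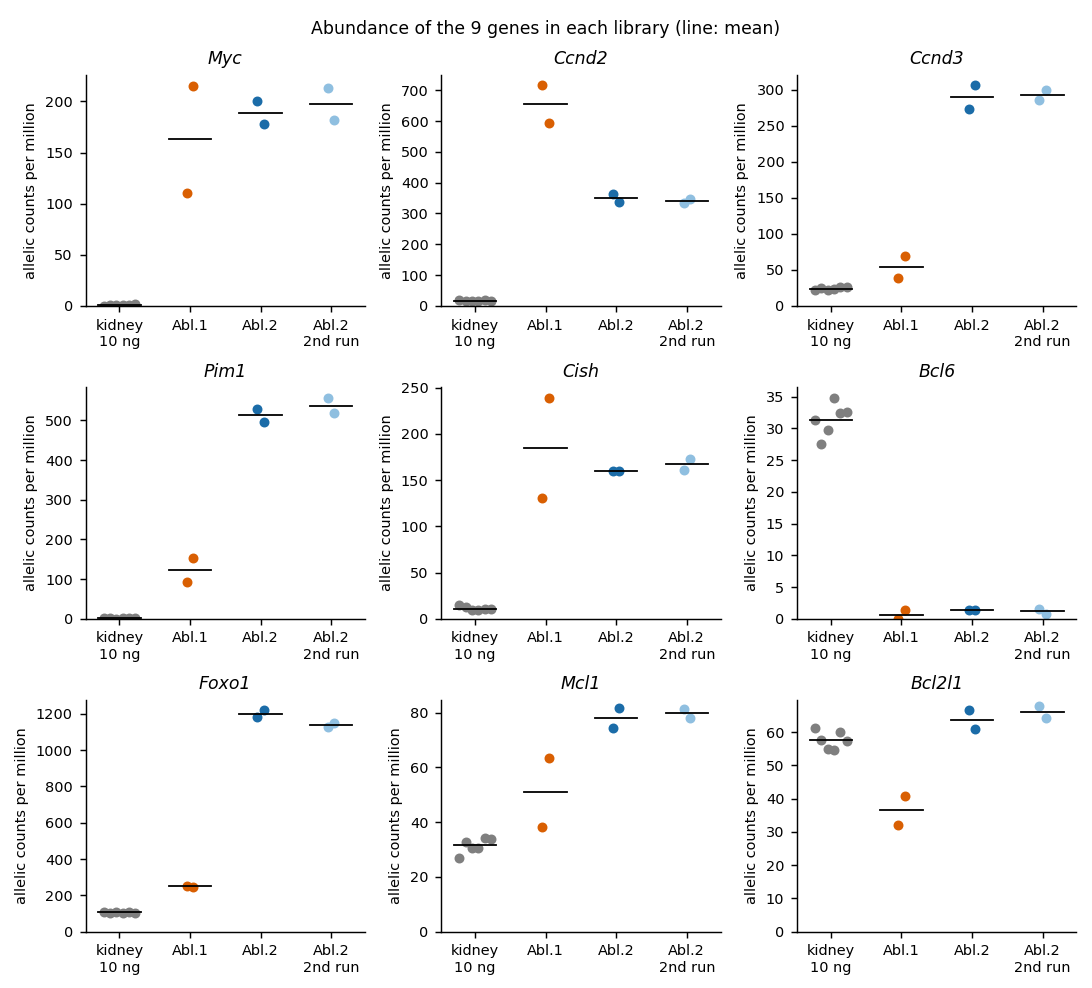
Abundance in CPM (vertical axis, linear, from 0) of each of the 9 genes in the 6 kidney 10 ng libraries, 2 Abl.1 libraries, 2 Abl.2 libraries and the second run of the latter; points are libraries and lines are group means. Foxo1, Pim1 and Ccnd3 are higher in both Abl.2 libraries than in both Abl.1 libraries, Ccnd2 is lower, and the 2 Abl.1 libraries stand apart from each other for Myc (110 and 216 CPM) and Cish (131 and 239 CPM).

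Myc (ENSMUSG00000022346, chr15:61985391-61990374, GRCm38) was read at 2119 and 4795 counts in Abl.1, which is 110 and 216 CPM, and at 4272 and 3955 counts in Abl.2, which is 200 and 178 CPM. Both Abl.2 libraries lay between the 2 Abl.1 libraries, so the groups overlapped. The fitted difference was -0.11 ± 0.29 (log2, SE; edgeR adjusted p = 0.771). It turned on the Abl.1 library used. Without replicate 1 of Abl.1 the difference was -0.47 (edgeR adjusted p = 0.00378), without replicate 2 it was 0.34 (edgeR adjusted p = 0.0260), and with library totals it was 0.22. In kidney, Myc was read at 1 to 13 counts (median 6.5), 1.02 ± 0.647 CPM (SD, n = 6). The clones exceeded kidney 104-fold (log2 6.70 ± 0.27, SE). Here and below, the abundance difference of the clones from kidney is the mean of both clones in log2, and not the value of either clone. The kidney counts are close to the limit of detection.

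Among the D-type cyclins, Ccnd2 (ENSMUSG00000000184, chr6:127125162-127152193) was read at 13753 and 13232 counts in Abl.1, 716 and 595 CPM, and at 7763 and 7481 counts in Abl.2, 363 and 337 CPM. Both Abl.1 libraries were above both Abl.2 libraries. Ccnd2 was 2.40-fold lower in Abl.2 (log2 -1.26 ± 0.22, SE; edgeR adjusted p = 0.00591). The direction held in all 13 alternatives, but the call was lost without either Abl.2 library (edgeR adjusted p = 0.0512 without replicate 1 and 0.0829 without replicate 2).

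Ccnd3 (ENSMUSG00000034165, chr17:47505051-47599691) moved the other way. It was read at 750 and 1546 counts in Abl.1, 39.0 and 69.5 CPM, and at 5823 and 6803 counts in Abl.2, 273 and 307 CPM. The groups did not overlap, and Ccnd3 was 4.24-fold higher in Abl.2 (log2 2.09 ± 0.27, SE; edgeR adjusted p = 0.00225), past the threshold in all 13 alternatives. The Ccnd3 gene overlaps Bysl, which had 4008 to 6392 counts in the clones. The study's counting left out regions that belong to more than 1 gene. The third D-type cyclin gene, Ccnd1, was read at 680 and 746 counts in Abl.1 and at 19 and 15 in Abl.2 (log2 -5.81 ± 0.30, SE; edgeR adjusted p = 0.000139). So Ccnd1 and Ccnd2 were lower and Ccnd3 was higher in Abl.2.

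In kidney Ccnd2 was read at 98 to 120 counts and Ccnd3 at 140 to 167 counts. Against kidney, the mean of the clones was 17.3-fold higher for Ccnd2 (log2 4.11 ± 0.10, SE) and 3.15-fold higher for Ccnd3 (log2 1.66 ± 0.12, SE). In kidney Ccnd1 was read at 809 to 869 counts. Its mean CPM was 130 in kidney, 34.5 in Abl.1 and 0.783 in Abl.2. The mean of the clones against kidney was log2 -5.35 ± 0.10 (SE; edgeR adjusted p = 1.84e-14), a value that describes neither clone alone.

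Pim1 (ENSMUSG00000024014, chr17:29490753-29496112) was read at 1801 and 3386 counts in Abl.1, 93.7 and 152 CPM, and at 11312 and 11006 counts in Abl.2, 530 and 497 CPM. Both Abl.2 libraries were above both Abl.1 libraries, by 3.31-fold in the fit (log2 1.73 ± 0.23, SE; edgeR adjusted p = 0.00275), and the call held in all 13 alternatives with values of 1.47 to 2.06. In kidney Pim1 was read at 4 to 18 counts (median 12), a mean of 1.77 CPM. The mean of the clones in log2 was 85.6-fold higher (log2 6.42 ± 0.20, SE), over 2 clones that differed from each other.

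Cish (ENSMUSG00000032578, chr9:107296026-107302784), the STAT5 feedback gene whose promoter stretch is shown above, was read at 2511 and 5308 counts in Abl.1, 131 and 239 CPM. In Abl.2 it was read at 3405 and 3548 counts, 159 and 160 CPM, between the 2 Abl.1 libraries in CPM. After TMM scaling, both Abl.2 libraries lay below both Abl.1 libraries. The difference was -0.54 ± 0.26 (log2, SE; edgeR adjusted p = 0.142). It remained negative in all 13 alternatives and passed the threshold in 2 of them, without replicate 1 of Abl.1 (-0.86, edgeR adjusted p = 4.67e-05) and with the kidney libraries in the fit (-0.53, edgeR adjusted p = 0.0485). In kidney Cish was read at 59 to 93 counts, and the clones were 9.35-fold higher (log2 3.23 ± 0.16, SE). The gene overlaps Gm17040, read at 15 to 91 counts in the clones.

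Foxo1 (ENSMUSG00000044167, chr3:52268336-52353221) was read at 4876 and 5518 counts in Abl.1, 254 and 248 CPM, and at 25234 and 27019 counts in Abl.2, 1181 and 1219 CPM. The 2 libraries of each clone lay close together and the groups were far apart. Foxo1 was 3.74-fold higher in Abl.2 (log2 1.90 ± 0.19, SE; edgeR adjusted p = 0.000838), past the threshold in all 13 alternatives with values of 1.80 to 2.26. In kidney it was read at 669 to 699 counts (median 678.5), 107 ± 1.99 CPM (SD, n = 6), and the mean of the clones was 3.14-fold higher (log2 1.65 ± 0.06, SE).

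Bcl6 (ENSMUSG00000022508, chr16:23965052-23988852) was the gene least read in the clones. It had 0 and 30 counts in Abl.1 and 29 and 32 in Abl.2. Taken as independent counts, the 0 in replicate 1 allows up to 0.156 CPM (3 counts, counting error only). That is below the 1.35 CPM of replicate 2. The difference between the clones had a SE larger than itself (log2 0.74 ± 1.32; edgeR adjusted p = 0.671). It was -0.22 without replicate 1 of Abl.1, and 1 Abl.1 library therefore decides it. Kidney held 176 to 222 counts (median 203), 31.4 ± 2.48 CPM (SD, n = 6), and Bcl6 was 51.3-fold lower in the clones (log2 -5.68 ± 0.34, SE). All 6 kidney libraries were above all 4 clone libraries.

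Neither survival gene passed the test between the clones. Mcl1 (ENSMUSG00000038612, chr3:95658788-95663176) was read at 735 and 1411 counts in Abl.1, 38.3 and 63.4 CPM, and at 1592 and 1813 counts in Abl.2, 74.5 and 81.8 CPM. Both Abl.2 libraries were above both Abl.1 libraries in CPM, but the scaled difference was 0.29 ± 0.24 (log2, SE; edgeR adjusted p = 0.357). It passed the threshold only in the alternative without replicate 2 of Abl.1 (0.59, edgeR adjusted p = 0.00444).

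Bcl2l1 (ENSMUSG00000007659, chr2:152780668-152831728) was read at 618 and 905 counts in Abl.1, 32.2 and 40.7 CPM, and at 1423 and 1348 counts in Abl.2, 66.6 and 60.8 CPM. The groups did not overlap, but the difference fell short of the threshold (log2 0.46 ± 0.18, SE; edgeR adjusted p = 0.0813). It passed in 4 of 13 alternatives: without replicate 1 (0.37) or replicate 2 (0.55) of Abl.1, with library totals (0.81), and with the kidney libraries in the fit (0.47), at edgeR adjusted p = 0.0440, 0.00866, 0.0244 and 0.00381.

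Against kidney, Mcl1 was 1.21-fold higher in the clones (log2 0.28 ± 0.11, SE; edgeR adjusted p = 0.0357), and the call was kept in 8 of 18 alternatives. Kidney held Mcl1 at 171 to 218 counts. Bcl2l1 was 1.96-fold lower in the clones (log2 -0.97 ± 0.08, SE), with 349 to 390 counts in kidney, and it was lower in all 18 alternatives. With library totals, however, the difference shrank to -0.24. In CPM 1 Abl.2 library lay above and 1 within the kidney range of 54.6 to 61.3, and both Abl.1 libraries lay below it.

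For the contrast with kidney, all 9 genes passed, 7 higher and 2 lower in the clones, but 85.6% of the 13287 genes tested did so too (37.1% higher and 48.5% lower). The count of calls therefore says little about these genes. The median absolute difference was 3.23 for the 9 genes and 1.79 over all genes (log2). TMM lowered the clone minus kidney differences by a median of 0.73 (log2) compared with library totals, and under totals each of the 9 genes kept its direction. Tissue, cell culture, RNA extraction, sequencing instrument, read length and depth differ together between the clones and kidney and cannot be told apart.

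**Figure D2:**
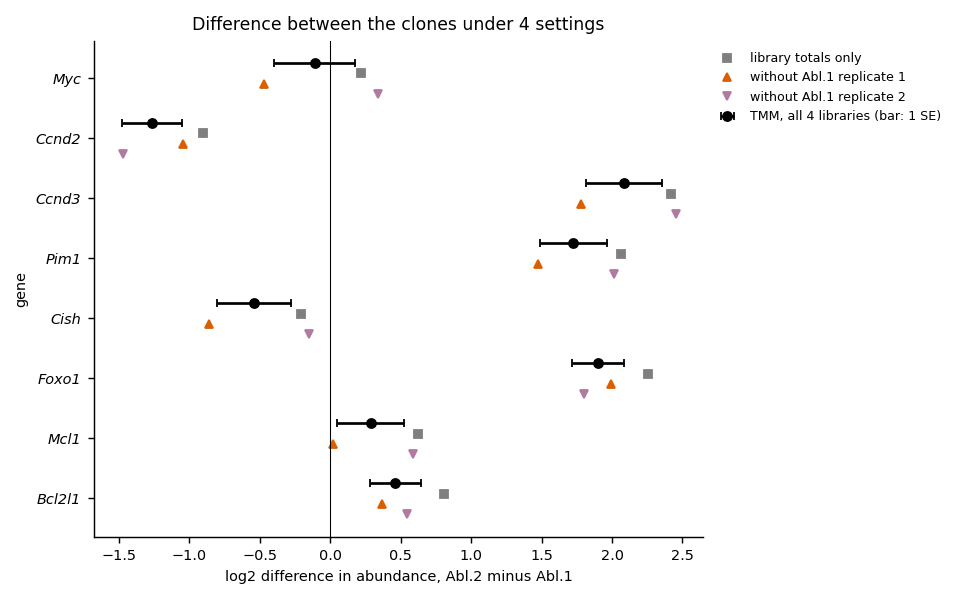
Log2 difference in abundance, Abl.2 minus Abl.1 (horizontal axis), of 8 genes under TMM with all 4 libraries (black, bar 1 SE), with library totals only, and without replicate 1 or replicate 2 of Abl.1. Bcl6 is left out because its difference runs from -0.22 to 7.76; Ccnd3, Pim1 and Foxo1 stay above 1.4 and Ccnd2 below -0.9 under all 4, whereas Myc lies on both sides of 0 (-0.47 to 0.34).

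AI was then compared. Overdispersion between replicate libraries was measured by the quality correction coefficient (QCC), the factor by which the spread of AI exceeds binomial sampling. QCC was 2.55 for the Abl.1 pair, 2.21 for the Abl.2 pair and 1.46 on average over the 15 kidney pairs. Counts were divided by the square of QCC before each test, so that 1 Abl.1 count carries less weight than 1 kidney count. Each group had 1 QCC for all genes, so an AI p-value does not use the spread of the single gene between libraries. Only genes with at least 10 counts in every library compared were tested. Of the 10068 genes tested between Abl.1 and Abl.2, 18.6% differed in AI at a Bonferroni-adjusted p of 0.05. Among the 9 genes 8 were tested and 2 were called, Ccnd2 and Myc, both with a lower maternal-column share in Abl.2. The other 6 did not pass, and Bcl6 was too little read.

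Ccnd2 had AI of 0.529 and 0.557 in the 2 Abl.1 libraries and 0.391 and 0.356 in the 2 Abl.2 libraries. The pooled AI was 0.543 in Abl.1 (QCC-corrected 95% interval 0.528 to 0.558) and 0.374 in Abl.2 (0.357 to 0.391), and the intervals did not meet. The difference was -0.169 (95% interval -0.192 to -0.146; Bonferroni-adjusted p = 2.09e-42), and the call was made in all 11 alternatives. In kidney the pooled AI of Ccnd2 was 0.496 (0.440 to 0.552), from 651 counts. The difference of Abl.1 from kidney was 0.0466 (-0.0117 to 0.105) and that of Abl.2 was -0.122 (-0.181 to -0.0636). Neither passed the Bonferroni threshold, although that of Abl.2 passed in 6 of 9 alternatives.

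Myc had AI of 0.739 and 0.735 in Abl.1 and 0.628 and 0.642 in Abl.2, so the libraries of a clone agreed within 0.02 while their Myc abundance in Abl.1 did not. The pooled AI was 0.736 in Abl.1 (0.709 to 0.762) and 0.635 in Abl.2 (0.612 to 0.657). The difference was -0.101 (-0.136 to -0.0664; Bonferroni-adjusted p = 0.000325). The direction held in all 11 alternatives and the difference in AI stayed between -0.108 and -0.0945, but the call was lost without replicate 2 of Abl.1 (Bonferroni-adjusted p = 1) and without replicate 1 of Abl.2 (Bonferroni-adjusted p = 0.108). In both clones the interval lay above 0.5, with the larger share in the maternal column. In kidney Myc had only 39 pooled counts, with an AI of 0.590 (0.368 to 0.780), and no test was made.

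Pim1 lay below 0.5 in both clones, at 0.330 and 0.317 in Abl.1 and 0.324 and 0.329 in Abl.2. All 4 libraries lay within 0.02 of each other although Pim1 was 3.31-fold more abundant in Abl.2. The pooled values were 0.321 (0.290 to 0.355) and 0.326 (0.313 to 0.340), and their difference was 0.00486 with an interval of -0.0303 to 0.040. A difference in Pim1 AI beyond that interval was thus not seen. Kidney held 68 pooled Pim1 counts with an AI of 0.441 (0.284 to 0.611), too few to test.

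Against kidney, 6 of the 9 genes could be tested in Abl.1 and 7 in Abl.2, and Foxo1 was the 1 gene called in each. The background for these comparisons was 17.3% of 8496 genes for Abl.1 and 23.8% of 8294 genes for Abl.2. AI of Foxo1 was 0.426 and 0.379 in Abl.1 and 0.423 and 0.410 in Abl.2, and 0.461 to 0.544 in the 6 kidney libraries, so clones and kidney did not overlap. The pooled AI was 0.401 (0.377 to 0.425) in Abl.1, 0.416 (0.407 to 0.425) in Abl.2 and 0.511 (0.488 to 0.533) in kidney. Against kidney the differences were -0.109 in Abl.1 (Bonferroni-adjusted p = 8.19e-07) and -0.0947 in Abl.2 (Bonferroni-adjusted p = 1.18e-10). The first was lost without replicate 2 of Abl.1 (-0.0850, Bonferroni-adjusted p = 0.693), and the second was called in all 9 alternatives. These 2 comparisons share the kidney libraries. Between the clones the AI of Foxo1 differed by 0.0148 (-0.0110 to 0.0405), with no call.

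The other genes gave no AI call. Ccnd3 had pooled AI of 0.497 (0.445 to 0.549) in Abl.1 and 0.433 (0.414 to 0.452) in Abl.2, a difference of -0.0638 (-0.119 to -0.00826) that did not pass after adjustment. Cish had 0.495 (0.466 to 0.523) and 0.537 (0.511 to 0.563), a difference of 0.0423 (0.00402 to 0.0806) without a call. Without the QCC correction both would have been called (Bonferroni-adjusted p = 0.000152 and 0.00280). Mcl1 had 0.511 and 0.50 and Bcl2l1 had 0.470 and 0.454, and the intervals of their differences, -0.0766 to 0.0543 and -0.0917 to 0.0601, included 0. Bcl6 had 30 counts in Abl.1 and 61 in Abl.2, which QCC correction lowers to 4.61 and 12.5. Its AI of 0.787 in Abl.2 had an interval of 0.510 to 0.929, and the second run of the same libraries gave 0.50.

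**Figure D3:**
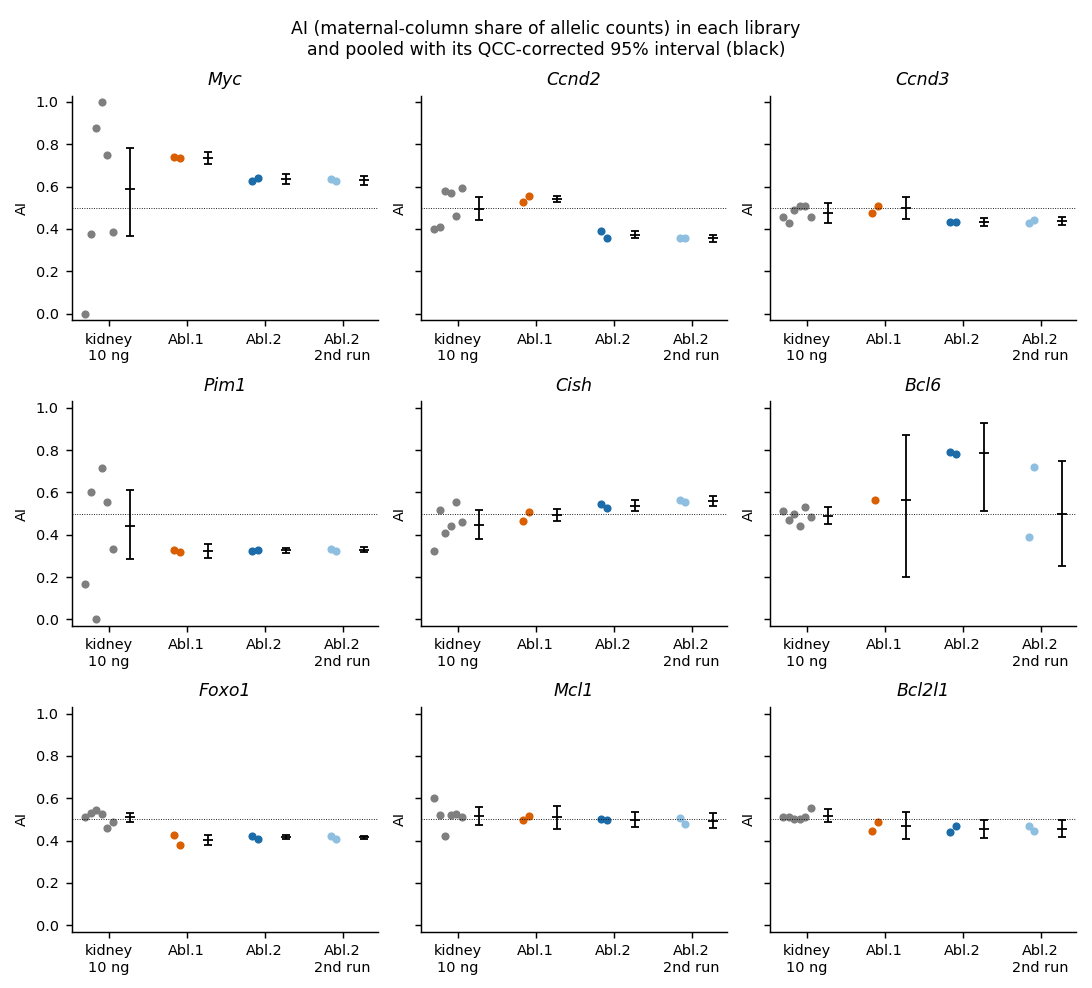
AI (vertical axis, share of allelic counts in the maternal column, 0 to 1) of each gene in each library (coloured points) and pooled over the libraries of a group with the QCC-corrected 95% interval (black); the dotted line is 0.5. Ccnd2 and Myc lie lower in Abl.2 than in Abl.1, and Pim1 lies near 0.32 in both clones. The kidney points of Myc and Pim1 scatter widely at 1 to 18 counts.

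The 2 measures were joined by scaling each allele separately. For Ccnd2 the maternal-column allele fell from a mean of 403 to 116 CPM after TMM scaling, 3.48-fold, and the paternal-column allele from 342 to 194, 1.76-fold. Both alleles were lower in Abl.2, and the maternal-column allele more so. For Myc the maternal-column allele stood at 97.5 and 169 in Abl.1 and at 111 and 102 in Abl.2, and the paternal-column allele at 34.5 and 60.9 in Abl.1 and at 65.7 and 56.7 in Abl.2. The maternal-column ranges overlapped, and so did the paternal-column ranges. For Pim1 both alleles were higher in Abl.2 by similar amounts, 3.35-fold and 3.29-fold, and for Foxo1 by 3.85-fold and 3.66-fold. For Ccnd3 the values were 3.72-fold and 4.77-fold. No separate test was made of an allele.

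**Figure D4:**
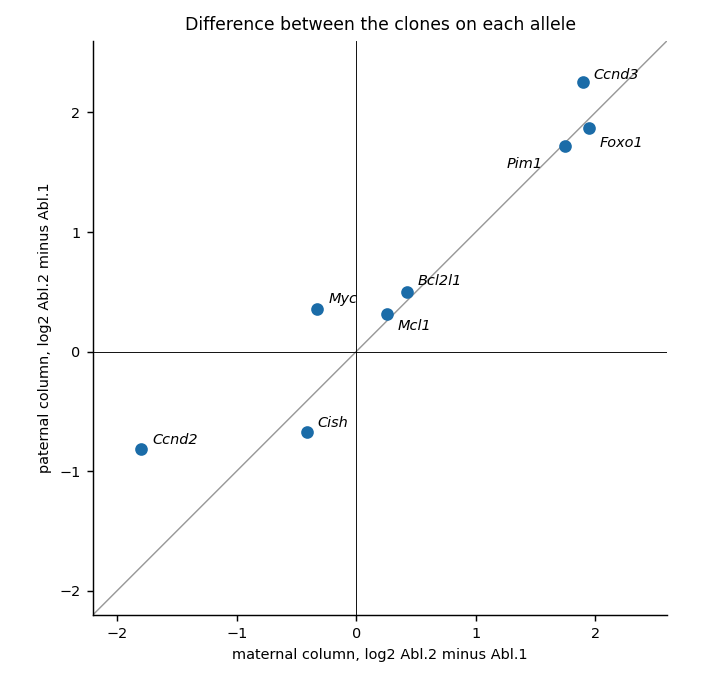
Log2 difference between the clones (Abl.2 minus Abl.1) of the maternal-column allele (horizontal axis) and of the paternal-column allele (vertical axis) for 8 genes, from means of TMM-scaled counts over 2 libraries; the grey diagonal marks equal differences. Ccnd2 (-1.80 and -0.82) and Myc (-0.33 and 0.36) lie farthest above the diagonal, and Pim1, Foxo1, Mcl1 and Bcl2l1 lie close to it; Bcl6 is left out for low counts.

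The column labelled maternal was checked, since AI depends on it. In kidney all 9 imprinted genes with at least 50 counts had an AI on the side of 0.5 opposite to the expressed parent's name. Phlda2 did so only slightly (0.450). In the clones the 1 such gene lay in the column of its parent. The 38 genes with an AI of at most 0.1 in kidney had median AI of 0.255 in Abl.1 and 0.253 in Abl.2, and the 44 genes with at least 0.9 had 0.837 and 0.876. The columns thus kept the same order of strains in both tables by this measure, and they are named here by their label only.

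AI of neighbouring genes was examined within 2 Mb on either side. Around Ccnd2, 22 other genes with at least 20 pooled counts in each clone had median AI of 0.520 in Abl.1 and 0.518 in Abl.2. Of the 21 that could be tested, 4 differed between the clones. The median difference was 0.00664, against -0.169 for Ccnd2. Its nearest neighbour, Tigar, stood at 0.354 and 0.358. Around Pim1, 38 genes had medians of 0.505 and 0.495, while Pim1 was at 0.321 and 0.326. Of these 38 genes, 4 differed between the clones. Tbc1d22b, the nearest, stood at 0.459 in Abl.1 and 0.401 in Abl.2 with no call. Fgd2, the nearest on the other side, stood at 0.402 in Abl.1 and 0.261 in Abl.2 (Bonferroni-adjusted p = 1.01e-15). Around Foxo1, 13 genes had medians of 0.514 and 0.527. Myc had only 2 such neighbours, Fam84b and Fam49b, both over 1 Mb away, neither called. The medians of the chromosomes lay between 0.489 and 0.510 in both clones for all chromosomes that hold these 9 genes. For Ccnd3, Cish, Mcl1 and Bcl2l1 the neighbours, 51, 78, 52 and 39 genes, had medians of 0.468 to 0.541, and for Bcl6 the 16 neighbours had 0.506 and 0.504.

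**Figure D5:**
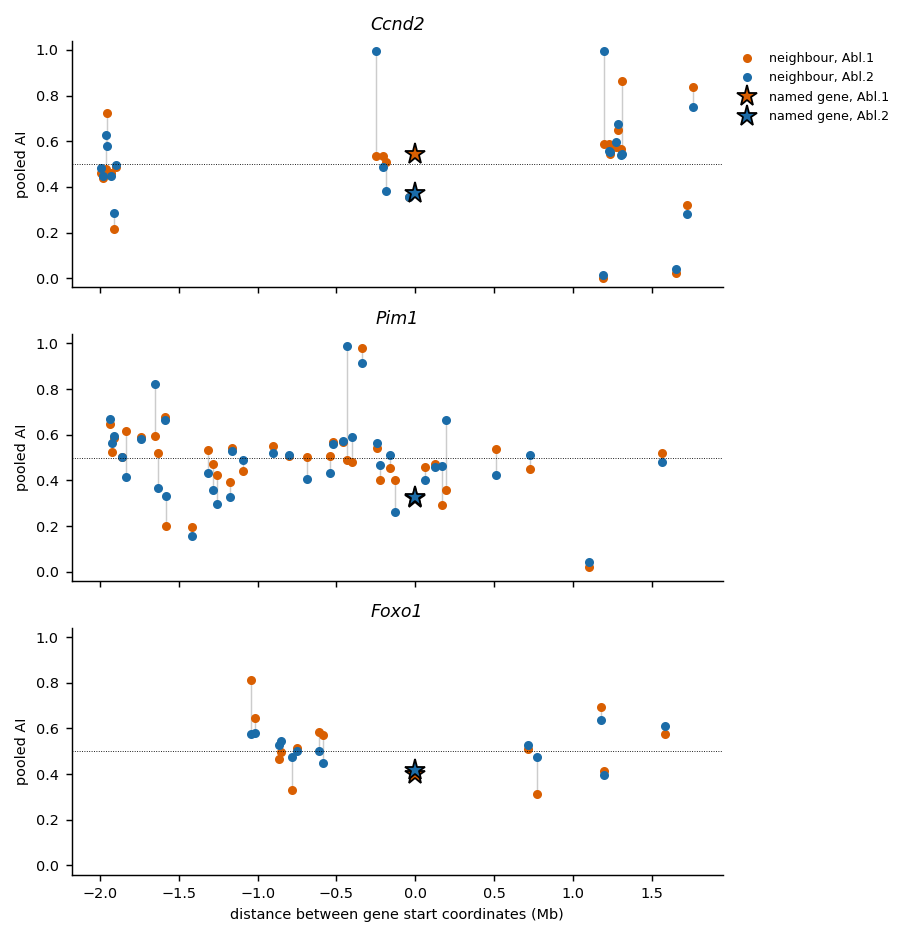
Pooled AI (vertical axis) in Abl.1 (orange) and Abl.2 (blue) of Ccnd2, Pim1 and Foxo1 (stars, at 0) and of all their neighbours. Neighbours have at least 20 counts in each clone and are placed by the distance between start coordinates in Mb (horizontal axis). Grey lines join the 2 clones. The median neighbour lies between 0.495 and 0.527 in each panel, whereas Pim1 lies at 0.321 and 0.326 in the 2 clones and Ccnd2 at 0.543 and 0.374.

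The second sequencing run of Abl.2 gave the same picture from the same libraries. For the 8 genes other than Bcl6, CPM in the second run was 0.916 to 1.09 times that in the first, and AI moved by a median of 0.0103 and by at most 0.0352 (Ccnd2, replicate 1). Bcl6 moved from 29 to 36 and from 32 to 18 counts. The difference between the 2 Abl.1 libraries in Myc, Cish and Ccnd3 was larger than that between the runs for the same genes. QCC between the 2 runs of a library was 1.65 and 1.63, below the 2.21 between the 2 Abl.2 libraries.

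The pathways around these genes were described by lists of other members. Of 27 genes of v-Abl and JAK-STAT signalling, 25 were tested between the clones, of which 10 were higher and 3 lower in Abl.2 and 12 did not pass, with a median of 0.40 (log2) against 0.01 over all genes. Over all tested genes 46.2% were called, 21.6% higher and 24.5% lower, and the counts of this list and of the lists below are a description beside those shares. Il7r, the interleukin 7 receptor chain, was read at 87 and 82 counts in Abl.1 and at 9732 and 12000 in Abl.2 (94.8-fold higher; edgeR adjusted p = 0.000134). Stat5a was read at 2121 and 6202 counts in Abl.1 and at 1058 and 1092 in Abl.2, 4.91-fold lower (edgeR adjusted p = 0.00596), whereas Stat5b was 1.71-fold higher (561 and 987 against 1682 and 1788 counts; edgeR adjusted p = 0.0275). The feedback inhibitor Socs2, the most read of this list, had 17649 and 20357 counts against 32339 and 34594 (log2 0.39; edgeR adjusted p = 0.121), and Socs1 rose 2.77-fold from 42 and 36 to 157 and 137 counts (edgeR adjusted p = 0.0301). The GTPase gene Hras was 2.07-fold lower (edgeR adjusted p = 0.00635). In AI, Stat5a went from 0.708 to 0.509, Stat5b from 0.636 to 0.448 and Socs2 from 0.404 to 0.202 (Bonferroni-adjusted p = 3.14e-10, 0.00480 and 9.03e-186). Other genes of the same chromosomes shifted the same way. On chromosome 11, which holds Stat5a and Stat5b, 5 of 6 genes of the lists were lower in AI in Abl.2. The median of 940 genes of the chromosome with at least 20 counts in each clone went from 0.584 to 0.506. On chromosome 10, which holds Socs2, 5 of 5 genes of the lists were lower, and the median of 500 genes went from 0.506 to 0.339. Grb2 was at 0 in every library, like Abl1.

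Of 23 genes of PI3K, AKT and FOXO signalling 22 were tested, of which 8 were higher and 14 did not pass (median 0.70), beside 46.2% of all genes called and 21.6% higher. With library totals 12 were higher. Pik3cd, the leukocyte catalytic subunit, rose 2.99-fold from 11203 and 17322 to 53549 and 58729 counts (edgeR adjusted p = 0.00184), with AI of 0.410 in Abl.1 and 0.999 in Abl.2. That AI is shared along chromosome 4, where 9 of 9 genes of the lists lay at 0.998 to 1 in Abl.2 and the median of 688 genes went from 0.510 to 0.999. Foxo3 rose 2.97-fold from 239 and 332 to 1126 and 1127 counts (edgeR adjusted p = 0.00183). The FOXO1 target Rag1, a recombinase gene, had 492 and 488 against 996 and 907 counts (log2 0.52; edgeR adjusted p = 0.101) and was at 0 in all 6 kidney libraries. Akt1 had 4281 and 10200 against 5907 and 5978 counts (log2 -0.64; edgeR adjusted p = 0.133), and Inpp5d, which encodes the phosphatase SHIP1, had a difference of 0.06 (edgeR adjusted p = 0.813).

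Of 19 other genes of the G1 cyclins and their inhibitors, 18 were tested, of which 7 were higher, 1 lower and 10 did not pass (median 0.62), beside 46.2% of all genes called. The 1 lower gene was Ccnd1. The partners of the D-type cyclins were among those that did not pass, Cdk4 with 3699 and 5188 against 5297 and 5888 counts (log2 -0.08; edgeR adjusted p = 0.741) and Cdk6 with 2495 and 3030 against 2727 and 2914 (log2 -0.39; edgeR adjusted p = 0.103). The inhibitor genes Cdkn1a, Cdkn1b and Cdkn2d also did not pass (log2 0.39, 0.56 and 0.15). Cdk4 differed in AI, from 0.536 to 0.365 (Bonferroni-adjusted p = 5.26e-20), and 9 of 18 tested genes of this list did so, beside 18.6% of all genes. Of these 9, 5 lie on chromosome 4 (Ccne2, Cdkn2a, Cdkn2b, Cdkn2c and E2f2) and 2 on chromosome 10 (Cdk2 and Cdk4), the chromosomes whose medians moved.

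Of 15 other genes of the BCL2 family in the tables, 11 were tested, of which 1 was higher, 6 lower and 4 did not pass, with a median of -0.86, beside 46.2% of all genes called and 24.5% lower. The 1 higher gene, named after its values were seen, was the pro-apoptotic Bmf, with 33 and 21 counts in Abl.1 and 446 and 336 in Abl.2 (log2 3.40; edgeR adjusted p = 0.00225). With library totals 2 were higher and 4 lower. The survival gene Bcl2 fell 3.91-fold, from 418 and 586 to 173 and 167 counts (edgeR adjusted p = 0.00143). The pro-apoptotic genes Bid, Bax and Bok were also lower in Abl.2, Bid 3.68-fold (10219 and 17576 against 4795 and 5076 counts), Bax 2.00-fold (13536 and 11154 against 8356 and 8621) and Bok 21.0-fold (4333 and 6032 against 262 and 393; edgeR adjusted p = 0.00142, 0.0235 and 0.000164). Bcl2l11, the pro-apoptotic FOXO target that encodes BIM, had 186 and 308 against 501 and 547 counts (log2 0.69; edgeR adjusted p = 0.0545). A gene that protects and genes that kill were thus both among those lower.

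Of 12 other genes of the MYC network and PIM kinases in the tables, 11 were tested, of which 6 were higher and 5 did not pass (median 0.87), beside 46.2% of all genes called and 21.6% higher. Pim2, an X-linked PIM kinase gene, rose 7.54-fold from 253 and 485 to 3648 and 3593 counts (edgeR adjusted p = 0.000532). Its AI was 0.00136 in Abl.1 and 0.00124 in Abl.2. The other X-linked genes of the lists were also near 0 in AI in both clones. Il2rg stood at 0.00158 and 0.000367, and Foxo4 at 0 in both (7 to 40 counts per library). The MYC partner Max had 923 and 1953 against 2484 and 2312 counts (log2 0.37; edgeR adjusted p = 0.294), and Mxd4, a repressor partner of MAX, had a difference of 0.43 (edgeR adjusted p = 0.0772). Mycn, a paralog of Myc named here after its values were seen, was read at 0 and 1 counts in Abl.1 and at 3006 and 2841 in Abl.2.

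These counts depended on the libraries. Without replicate 2 of Abl.1 the JAK-STAT list had 17 genes higher and 3 lower, and without replicate 1 or 2 of Abl.2 it had 6 higher and 2 lower. Over the same 4 fits, from 7 to 12 genes of the PI3K list, 4 to 10 of the cyclin list and 2 to 8 of the MYC and PIM list were higher, and from 3 to 7 of the BCL2 family were lower. Among the genes named above, the calls of Stat5b, Socs1, Hras and Bax were lost without either Abl.2 library. Socs2, Cdk6, Bcl2l11 and Mxd4 passed without either Abl.1 library, Akt1, Rag1, Cdkn1a and Cdkn1b without replicate 1 of Abl.1, and Max without replicate 2.

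The gene most like each of the 9 in its profile over the 10 libraries of Abl.1, Abl.2 and kidney was sought among 9121 autosomal genes averaging 100 counts or more, by the root mean square difference of centred log2 CPM. The closest matches were Pnrc2 for Bcl2l1 (0.08), Cnot11 for Mcl1 (0.11), St3gal6 for Foxo1 (0.13), Srm for Ccnd2 (0.15) and Stat6 for Ccnd3 (0.16). Tmem63a was closest to Cish (0.21), and the matches for Bcl6 (Rbpms2, 0.44), Myc (Aunip, 0.47) and Pim1 (Aldh18a1, 0.49) were looser. St3gal6, for example, was read at 3150 and 3553 counts in Abl.1 and 14311 and 15420 in Abl.2. These distances describe the profiles and were not tested.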

How the data were processed

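The authors aligned reads with STAR 2.5.4a (per the submitters' processing notes, which also name SAMtools and GATK) to strain-specific versions of GRCm38. They summed the allelic counts of all SNPs in the merged exons of each gene. The deposited tables hold these counts, whole and not normalized, for 2 alleles per library. Only reads over SNPs are counted, so levels are not compared between genes. A read or read pair over several SNPs adds several counts, and the study states that these are not independent. The deposited AI tables hold fractions pooled by the authors and were not used. The 9 genes and all lists were chosen with earlier results of these data known. Of 24 samples 12 were used, grouped by their titles, and the 2 runs of an Abl.2 library were counted as 1 library.

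Total allelic counts were tested with edgeR 4.0.16 (R 4.3.3; TMM, quasi-likelihood, mean of at least 10 counts, Benjamini-Hochberg 0.05). Genes on X were left out of the fit with kidney because all had 0 counts there. AI was compared by a two-sided two-sample proportional test without continuity correction on pooled counts divided by the square of QCC (at least 10 counts in each library, Bonferroni 0.05), after the study's method. QCC was recomputed from replicate pairs (bins of base 1.05 with at least 40 genes and 50 counts), thinning the deeper library where totals differed by more than 5%. Intervals are Wilson intervals at 95% for a pooled AI and normal ones for a difference, and cover counting error and overdispersion between libraries only. On data simulated for Abl.2 against Abl.1, edgeR recovered 38 of 100 genes changed 2-fold and 95 of 100 changed 4-fold. It made 5 false calls among the unchanged genes of the 12294 simulated. The proportional test recovered 134 of 200 AI shifts of 0.25 with 0 false calls among the unchanged genes of the 10068 simulated. The simulation gave both clones the same spread, whereas the real log2 ratios had an SD of 0.64 in Abl.1 and 0.40 in Abl.2. AI was simulated at a QCC of 2, below the 2.55 of Abl.1 and 2.21 of Abl.2. These figures hold for those settings only.

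The named genes are the 9 genes, 16 pathway genes set by name, and the 3 most counted genes of each list over the clone libraries. Gene positions are those of the tables. Alternatives were DESeq2 1.42.0, RLE factors, other filters, a replicate block, the second run, left-out libraries, and for AI other adjustments and an edgeR fit on both alleles. Scaling by library totals was added after the data were seen. Tables and figures were made in Python 3.11.15 (pandas 2.3.3, scipy 1.17.1, matplotlib 3.10.9).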

Additional observations from a re-analysis of the deposited data

Results flagged for a closer look

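One of 18 sets of 6 kidney values for these genes (CPM and AI of each gene) held a library far from the others. The AI of Bcl2l1 was 0.556 in replicate 6, with 367 counts, and 0.501 to 0.514 in the other 5 libraries. Chance alone flags about 1 in 20 such sets.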

How the results depend on the processing

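Abundance differences between the clones kept direction and side of the threshold in 102 of 116 gene-by-alternative checks, lost the call in 2, gained it in 9 and turned in 3. Those that turned had no call with all libraries: Myc at 0.22 with library totals and at -0.47 to 0.34 when 1 library was left out, and Bcl6 at -0.22 to 7.76 when 1 library was left out. Leaving out 1 library gave 3543 to 8275 genes called in place of 5674, and 3 to 8 of the 9 genes; a clone with 1 library left was assumed to vary like the other. DESeq2 called 5927 genes and the replicate block 5665. The labels give the numbers to library preparations and no pairing between the clones, and replicate 2 minus replicate 1 correlated across genes at 0.0964 between the clones. Against kidney no direction turned in 162 checks, and 10 lost the call, all of Mcl1, 1 of them with the replicate block (0.35).

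AI between the clones gave 3870 genes without QCC, 3196 with Benjamini-Hochberg adjustment and 1535 to 1640 with 1 library left out, in place of 1873. Of the 9 genes 4 were called without QCC and 1 to 2 with 1 library left out. For AI against kidney in Abl.1, 3077 genes were called without QCC, 2957 with Benjamini-Hochberg adjustment, 3015 with edgeR and 2267 with edgeR and the replicate block, in place of 1474; the block gave 2 of the 9 genes (Ccnd2 and Foxo1) and leaving out 1 Abl.1 library 0 to 1. In Abl.2 the counts were 3258, 3531 and 3398 without QCC, with Benjamini-Hochberg adjustment and with edgeR, in place of 1973. Of the 9 genes these settings called 2, 4 and 5 in place of 1, and the replicate block, the second run, both runs summed and the fit without replicate 1 of Abl.2 each called 2. AI differences without a call changed sign when 1 library was left out, between the clones for Pim1 (-0.00358 to 0.00935), Foxo1 (-0.00969 to 0.0364), Mcl1 (-0.0192 to 0.00432) and Bcl2l1 (-0.0329 to 0.00936), and against kidney in Abl.1 for Ccnd3 (-0.00018 to 0.0349) and Mcl1 (-0.0209 to 0.00263). Apart from the effect of fewer libraries, the cause of these changes was not tested. Depth limits Bcl6 in the clones and Myc and Pim1 in kidney.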
